A study of Caenorhabditis elegans with 16 samples.

Results

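The vitellogenin genes vit-1, vit-2, vit-3, vit-4, vit-5 and vit-6 encode the yolk proteins of Caenorhabditis elegans. The 6 genes were taken by name from a list of yolk protein genes, and all 6 were measured among the 19974 named genes of each deposited table. The rule uses gene names and no measured value. Vitellogenins are large lipid-binding proteins of the same family as vertebrate vitellogenin and apolipoprotein B. They are made in the intestine of the adult hermaphrodite, secreted into the body cavity and taken up by growing oocytes through the yolk receptor RME-2, to feed the embryo. Their transcription is known to begin around the passage from the last larval stage, L4, to the adult, and the hypodermis is not known as a source of yolk.

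The measurements came from RNA polymerase DamID (RAPID) of L4 larvae. In this assay RPB-6, a polymerase subunit, carries the bacterial adenine methyltransferase Dam, which methylates GATC sites near which the polymerase is found, and methylated fragments are amplified and sequenced. GFP::Dam, which is not tethered to the polymerase, reports how open each site is. The 16 libraries formed 8 groups of 2 replicates, with Dam::RPB-6 or GFP::Dam in hypodermis or intestine of WT or baf-1(G12T) animals. baf-1(G12T) (allele bq19) is a change at the endogenous baf-1 gene on chromosome III, which encodes the chromatin protein barrier-to-autointegration factor, and it models the mutation of a human progeroid syndrome. All groups, controls included, carried the Dam fusion as a single-copy transgene on chromosome II (bqSi1411 for Dam::RPB-6, bqSi447 for GFP::Dam) under a heat shock promoter, which was left uninduced so that little fusion protein was made. A cassette encoding mCherry::HIS-58 stood before the Dam fusion and kept the fusion from being made until FLP recombinase cut the cassette out. FLP was driven by the dpy-7 promoter for hypodermis (bqSi548) and by the nhx-2 promoter for intestine (bqSi997, which also makes mNeonGreen), so a tissue here means the cells in which that promoter had been active. Pools of 4000 larvae per strain were grown for 48 h at 20 °C on Dam-negative bacteria. Of their genomic DNA, 200 ng was used as input, with 14 PCR cycles. The study used these profiles to ask which genes are transcribed in each tissue and how baf-1(G12T) changes them.

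The deposited value of a gene is log2(Dam::RPB-6/GFP::Dam) over its GATC fragments, called the score below, with an FDR for the call of transcription. A score of 0 means equal signal of both fusions, and 1 means 2-fold more Dam::RPB-6. Each table holds 1 score per gene for each combination of tissue and genotype, with the 2 replicates already combined. There is therefore no replicate error for any value, no difference has a replicate check, and no test was made. The files carry no read counts per gene, so the depth behind the score of a single gene is unknown. Totals of reads at GATC sites are reported by the study for each library. These totals were uneven, and the lowest belonged to a replicate of Dam::RPB-6 in baf-1(G12T) hypodermis. The effect of this unevenness on the scores was not tested.

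The tissue labels were read against marker genes. Of 12 intestine markers, 4 were called transcribed in WT intestine and 8 in baf-1(G12T) intestine, against 1 and 0 in hypodermis. Of all named genes, 7.94% and 10.5% were called in WT and baf-1(G12T) intestine, and 9.81% and 7.53% in hypodermis. Marker counts of 0 or 1 in lists this short are near what these shares give. The score of act-5, the actin of the intestinal brush border, was 1.59 in WT intestine and -0.58 in WT hypodermis. Not all intestine markers went this way. Their WT differences, intestine minus hypodermis, ran from -0.59 to 3.14, with a median of 0.06 against -0.02 for all named genes. elt-2 and ges-1, the standard intestine-defining genes, were called in no group, and dpy-7, whose promoter drove FLP in hypodermis, was called in none either. Of 12 hypodermis markers, 9 and 7 were called in WT and baf-1(G12T) hypodermis, and 3 and 0 in intestine. Of 4 germ line markers none was called in any group, and of 4 body wall muscle markers 1 (unc-15, in baf-1(G12T) intestine). Of 4 neuron markers, 2 and 1 were called in WT and baf-1(G12T) hypodermis and 1 and 2 in intestine, unc-104 in all 4 groups.

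The sequence of the family bears on every value below. On the reference genome (RefSeq, WBcel235, the ce11 build of the files), 5 of the genes lie on chromosome X. vit-1 is at chrX:7727889-7733168 (plus strand), vit-2 at chrX:5101032-5106169 (plus), vit-3 at chrX:3567355-3572549 (minus), vit-4 at chrX:3558769-3563965 (minus) and vit-5 at chrX:3403471-3408603 (plus). vit-6 is on chromosome IV, at chrIV:8261157-8266459 (plus strand). The genes are of nearly the same size, 5133 to 5303 bases, with 27 to 31 GATC fragments each, and the score is a ratio over those fragments rather than a count that grows with length. vit-3 and vit-4 are neighbours, 3389 bases apart and on the same strand.

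The encoded proteins, of 1603 to 1651 residues, fall into 3 classes. VIT-3, VIT-4 and VIT-5 are near copies, with 98.7% identity between VIT-3 and VIT-4, 97.9% between VIT-3 and VIT-5 and 98.1% between VIT-4 and VIT-5. VIT-1 and VIT-2 are 94.0% identical. Identity between these classes was 57.0% to 58.3%, and VIT-6 shared 32.8% to 33.6% of its aligned residues with the others. The likeness extends to DNA, as 48 of 4812 aligned coding bases differ between vit-3 and vit-4 and 292 of 4841 between vit-1 and vit-2.

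A read of DamID starts at a GATC site, so the first bases after the site decide to which gene it can be assigned. At 50 bases, 58 of 58 such read ends in vit-6 are found once in the genome, 48 of 60 in vit-2, 44 of 56 in vit-1, 33 of 56 in vit-5, 12 of 52 in vit-3 and 9 of 52 in vit-4. Over all 50-base windows of the gene, the share found once was 100% for vit-6, 87.2% for vit-1, 86.9% for vit-2, 50.9% for vit-5, 25.9% for vit-3 and 21.4% for vit-4. Of the vit-3 windows 71.1% are also in vit-4 and 40.9% in vit-5, whereas 12.8% of the vit-1 windows are also in vit-2. The scores of vit-3, vit-4 and vit-5 are accordingly uncertain as values of single genes, and those of vit-1 and vit-2 in part, since the sources used here do not give how reads with several matches were treated. Of the reads printed here to show the problem, the first occurs in all of vit-3, vit-4 and vit-5 (chrX:3570776-3570825, chrX:3562212-3562261 and chrX:3405191-3405240), and the other 2 are the matching read of vit-1 (chrX:7728957-7729006) and vit-2 (chrX:5102099-5102148), from RefSeq, with the GATC site in capitals.
vit-3, vit-4 and vit-5 read: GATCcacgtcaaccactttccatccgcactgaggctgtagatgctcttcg
vit-1 read: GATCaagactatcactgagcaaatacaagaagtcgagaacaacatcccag
vit-2 read: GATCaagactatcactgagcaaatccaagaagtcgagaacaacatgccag
Counting from the G of GATC, with the vit-1 base first, the vit-1 and vit-2 reads differ by 2 substitutions, A25C and C46G.

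**Figure D1:**
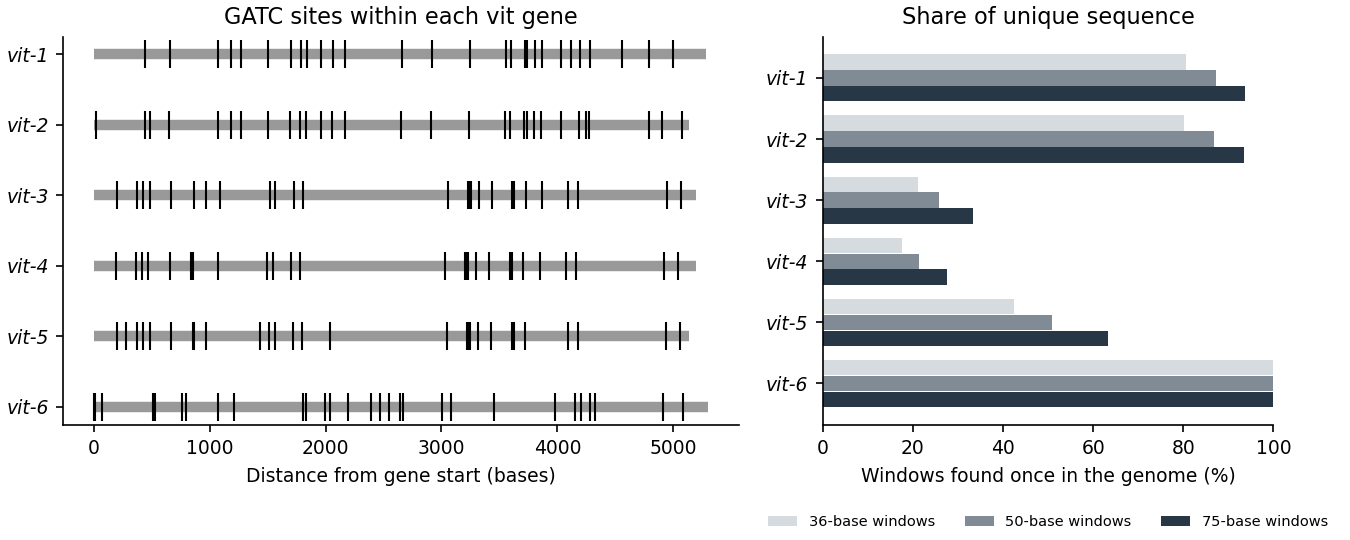
Left, position of each GATC site (black ticks) along the 6 vit genes (grey bars), in bases from the gene start. Right, percent of windows of 36, 50 and 75 bases of each gene that occur once in the genome. All windows of vit-6 occur once, those of vit-4 least often (21.4% at 50 bases), and vit-3 and vit-4 have 1 stretch of 1252 bases without a site.

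Upstream of the genes, 2 short elements are known from comparisons of vit promoters, TGTCAAT (element 1) and CTGATAA (element 2, which holds the GATA sequence bound by the intestinal factor ELT-2). Both were searched on both strands from 250 bases before to 50 bases after each gene start, and they do not overlap each other in these promoters. Element 1 was found in 6 of 6 vit promoters and in 5.75% of 19971 promoters of all genes. Element 2 was found in 5 of 6, vit-3 being the exception, and in 8.21% of all promoters. Both together were in 5 of 6 and in 0.501% of all. The elements were defined on these genes, so their presence is no independent observation. The 200 bases before the gene start are printed for the genes with the highest scores (vit-6, vit-2), for vit-1, which differed from vit-2 in score, and for vit-3, which lacks element 2. Element matches are in capitals, and ATTGACA and TTATCAG are the elements read on the other strand.
vit-6 (chrIV:8260957-8261156, plus strand): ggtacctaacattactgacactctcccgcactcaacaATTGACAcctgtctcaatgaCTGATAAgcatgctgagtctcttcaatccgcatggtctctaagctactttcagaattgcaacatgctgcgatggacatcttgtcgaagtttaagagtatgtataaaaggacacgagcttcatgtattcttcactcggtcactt
vit-2 (chrX:5100832-5101031, plus strand): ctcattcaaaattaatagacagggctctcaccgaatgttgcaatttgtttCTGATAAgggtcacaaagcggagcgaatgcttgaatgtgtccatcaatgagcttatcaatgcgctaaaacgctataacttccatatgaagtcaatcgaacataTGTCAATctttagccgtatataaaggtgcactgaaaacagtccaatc
vit-1 (chrX:7727689-7727888, plus strand): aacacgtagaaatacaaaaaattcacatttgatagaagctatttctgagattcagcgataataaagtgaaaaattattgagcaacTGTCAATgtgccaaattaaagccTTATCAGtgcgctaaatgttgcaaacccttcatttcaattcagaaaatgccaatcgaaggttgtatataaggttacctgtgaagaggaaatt
vit-3 (chrX:3572550-3572749, minus strand): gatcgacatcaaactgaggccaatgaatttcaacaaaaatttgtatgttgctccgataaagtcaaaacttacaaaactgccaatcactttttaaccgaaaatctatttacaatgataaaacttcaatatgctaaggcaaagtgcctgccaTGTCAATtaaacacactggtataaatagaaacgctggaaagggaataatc
The 4 sequences hold the elements at different distances from the gene start. Element 1 begins 163 bases before the start of vit-6, 115 before vit-1, 50 before vit-3 and 47 before vit-2, and element 2 begins 143 bases before vit-6, 150 before vit-2 and 92 before vit-1. The promoters of vit-1 and vit-2 are 65.5% identical over 229 aligned bases, less alike than their coding sequences.

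In WT intestine, vit-6 and vit-2 were among the genes with the highest polymerase scores, vit-5 lay well below them, and vit-3, vit-4 and vit-1 were near 0 or below. The score of vit-6 was 1.50 (FDR 2.8e-16), rank 55 from the top of 19974 genes, and that of vit-2 was 1.19 (FDR 1.1e-13), rank 93. vit-5 followed at 0.21 (FDR 8.9e-04, rank 1076). vit-3 and vit-4 had the same score to 2 decimals, 0.03, with FDRs of 0.0448 and 0.0457 just under the threshold of 0.05. vit-1 was the lowest at -0.29 (FDR 1, rank 17307), 1.48 below vit-2. The order in WT intestine was thus vit-6, vit-2, vit-5, vit-3, vit-4 and vit-1, and without replicate values no neighbours in it can be said to differ.

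At an FDR under 0.05, 5 of 6 vit genes were called transcribed in WT intestine, where 7.94% of all named genes were called. Genes with many GATC fragments were called more often. Of the 386 genes with 27 to 31 fragments, the range of the vit genes, 17.4% were called in WT intestine, with a median score of 0.12 among those called. The lowest score called in that class was 0.0203 and the highest not called 0.0190, so vit-3 and vit-4 (0.0296 and 0.0287) lay just inside the threshold.

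In baf-1(G12T) intestine all 6 vit genes were called, where 10.5% of all named genes and 24.9% of the 386 genes of like fragment number were called. vit-6 scored 1.60 (FDR 3.1e-22), rank 8 of 19974, and vit-2 1.23 (FDR 6.9e-18), rank 23. vit-5 scored 0.55 (FDR 4.2e-08, rank 347), vit-1 0.43 (FDR 1.3e-06, rank 533), vit-3 0.18 (FDR 0.0031, rank 1861) and vit-4 0.08 (FDR 0.0470, rank 3474). vit-6 and vit-2 thus led the family in both genotypes, and vit-1 moved from the last to the fourth place. vit-4 again lay next to the threshold, the lowest score called and the highest not called in its class being 0.0760 and 0.0765.

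In the hypodermis, none of the vit genes was called in either genotype. In WT hypodermis 9.81% of all named genes were called, and in baf-1(G12T) hypodermis 7.53%. The WT scores were -0.15 for vit-2, -0.12 for vit-6, -0.09 for vit-1, -0.04 for vit-5, -0.03 for vit-4 and -0.02 for vit-3. The baf-1(G12T) scores were -0.08 for vit-2, -0.06 for vit-5, -0.06 for vit-1, -0.02 for vit-4, 0.06 for vit-3 and 0.06 for vit-6. All 12 values lay within 0.15 of 0. The 2 genes highest in intestine were the 2 lowest in WT hypodermis, but vit-6 was the highest in baf-1(G12T) hypodermis. Without replicate values no order can be read from scores this close. The lowest scores called among genes with 27 to 31 fragments were 0.0921 in WT and 0.195 in baf-1(G12T) hypodermis, higher than in intestine, so the same FDR stands for different scores in different tables.

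**Figure D2:**
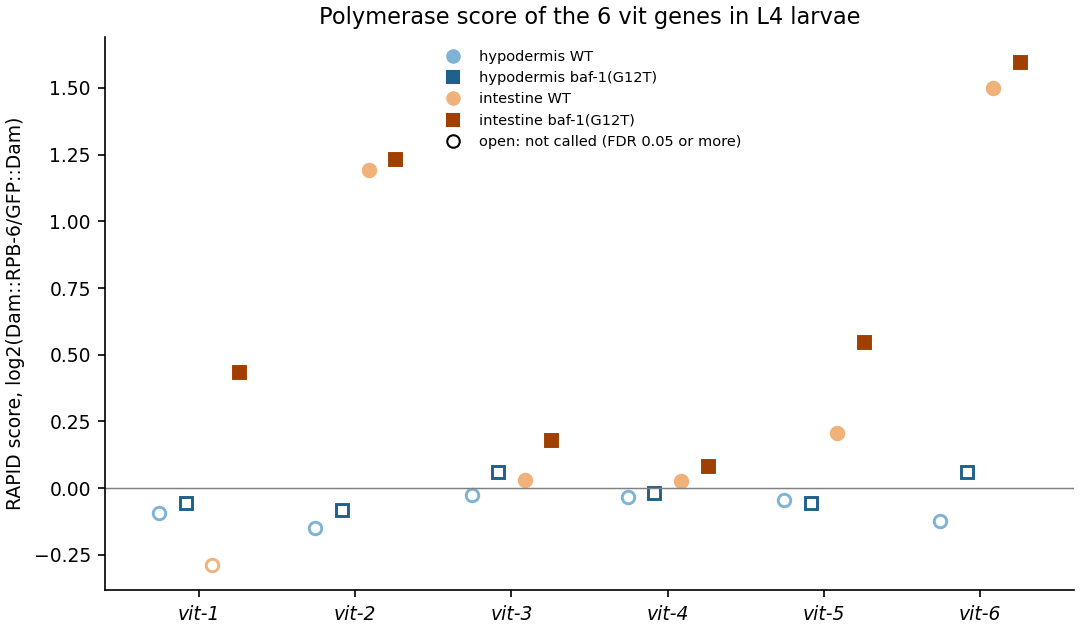
RAPID score, log2(Dam::RPB-6/GFP::Dam), of each vit gene in the 4 combinations of tissue (blue, hypodermis; orange and brown, intestine) and genotype (circles, WT; squares, baf-1(G12T)), 1 authors' value per point, filled where the FDR was under 0.05. vit-2 and vit-6 stand at 1.19 to 1.60 in intestine, and all hypodermis points are open and within 0.15 of 0.

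Over the family, the median of the 6 scores was 0.12 in WT intestine, 0.49 in baf-1(G12T) intestine, -0.07 in WT hypodermis and -0.04 in baf-1(G12T) hypodermis. The medians of all named genes were -0.07, -0.02, -0.04 and -0.02 in the same order. The median hides a wide spread in the intestine, from -0.29 to 1.50 in WT and from 0.08 to 1.60 in baf-1(G12T). Without vit-3 and vit-4, which share most of their sequence, the intestine medians were 0.70 in WT and 0.89 in baf-1(G12T). The highest scores belonged to vit-6, all of whose windows are unique, and the lowest in baf-1(G12T) intestine to vit-3 and vit-4, with the least unique sequence. vit-1 and vit-2, with 87.2% and 86.9% of windows unique, scored -0.29 and 1.19 in WT intestine, so like shares went with unlike scores. The part of shared sequence in the scores was not tested.

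The comparison of intestine with hypodermis asks in which tissue the polymerase occupies these genes. A difference of scores over 1 (2-fold) was used as the rule of size. In WT, 2 of 6 vit genes were higher in intestine by this rule, vit-6 by 1.62 and vit-2 by 1.34, and none was higher in hypodermis. Among all named genes, 0.616% were higher in intestine by more than 1 and 1.26% lower. vit-6 ranked 38 and vit-2 ranked 70 among the 19974 differences. vit-5 was higher in intestine by 0.25, vit-4 by 0.06 and vit-3 by 0.05, and vit-1 was lower there (-0.19).

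In baf-1(G12T), the same 2 genes passed the rule, vit-6 with 1.54 (rank 11 of 19974) and vit-2 with 1.31 (rank 24). All 6 differences were above 0, with 0.60 for vit-5, 0.49 for vit-1, 0.12 for vit-3 and 0.10 for vit-4. Among all named genes 0.546% were higher in intestine by more than 1 and 1.53% lower. Among the 3561 genes with at least 16 fragments, the median difference was -0.04 in WT and 0.00038 in baf-1(G12T), with an SD across genes of 0.25 and 0.27. Within that class vit-6 had the third highest difference in WT and the highest in baf-1(G12T). The median difference over the 6 vit genes was 0.16 in WT and 0.55 in baf-1(G12T), against -0.02 and -0.01 over all named genes.

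**Figure D3:**
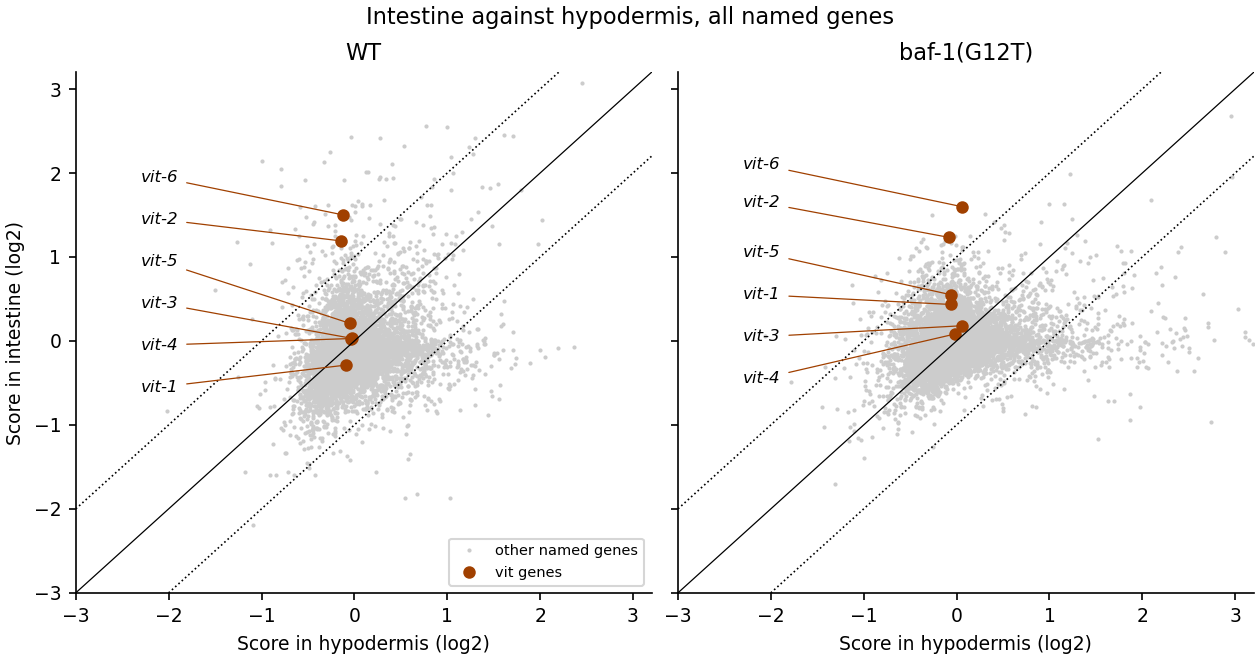
Score in intestine (vertical axis) against hypodermis (horizontal axis), both log2, for all named genes (grey) and the vit genes (brown) in WT (left) and baf-1(G12T) (right). The solid line marks equal scores and the dotted lines a difference of 1, and 3 and 9 genes lie outside the axes. vit-2 and vit-6 lie above the upper dotted line in both panels.

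The comparison of baf-1(G12T) with WT asks whether the mutation changes polymerase occupancy of these genes. No vit gene passed the rule of 1 in either tissue. Among all named genes 0.556% were higher and 0.451% lower by more than 1 in baf-1(G12T) intestine, and 1.06% were higher and 0.486% lower in baf-1(G12T) hypodermis. In intestine all 6 vit genes had a higher score in baf-1(G12T), by 0.72 for vit-1, 0.34 for vit-5, 0.15 for vit-3, 0.10 for vit-6, 0.05 for vit-4 and 0.04 for vit-2. A value above 0 was common there, since 74.5% of the 3561 genes with at least 16 fragments had one, and their median change was 0.05, with an SD across genes of 0.19. Against that class the change of vit-1 ranked 16 of 3561 and that of vit-5 ranked 274, and the other 4 vit genes lay between the quartiles of -0.00063 and 0.16. These sizes depend on the scaling. After quantile normalization of the 2 genotypes the changes were 0.74 for vit-6, 0.67 for vit-1, 0.57 for vit-2, 0.33 for vit-5, 0.04 for vit-3 and -0.05 for vit-4, with a median of 0.45 in place of 0.12, and again none passed the rule of 1. After centring each table on its median the change of vit-2 was -0.01, so the directions of vit-2 and vit-4 depend on the scaling too.

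The change of vit-1 was the one that altered a call. Its score went from -0.29 in WT intestine to 0.43 in baf-1(G12T) intestine, whereas in hypodermis it was -0.09 and -0.06. vit-2, its near copy, was called in both intestine tables and changed by 0.04, but by 0.57 against 0.67 for vit-1 after quantile normalization. The gap between vit-2 and vit-1 was 1.48 in WT and 0.80 in baf-1(G12T) intestine.

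In hypodermis the changes were smaller. They were 0.18 for vit-6, 0.08 for vit-3, 0.07 for vit-2, 0.04 for vit-1, 0.01 for vit-4 and -0.01 for vit-5, where genes with at least 16 fragments had quartiles of -0.06 and 0.09. vit-6 was the 1 member outside those quartiles, and it was not called in either genotype. The intestinal change minus the hypodermal change was 0.68 for vit-1, 0.35 for vit-5, 0.07 for vit-3, 0.04 for vit-4, -0.03 for vit-2 and -0.09 for vit-6, with a median of 0.05. Of the 3561 genes with at least 16 fragments, 58.8% had a value above 0, and the vit-1 value ranked 82.

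**Figure D4:**
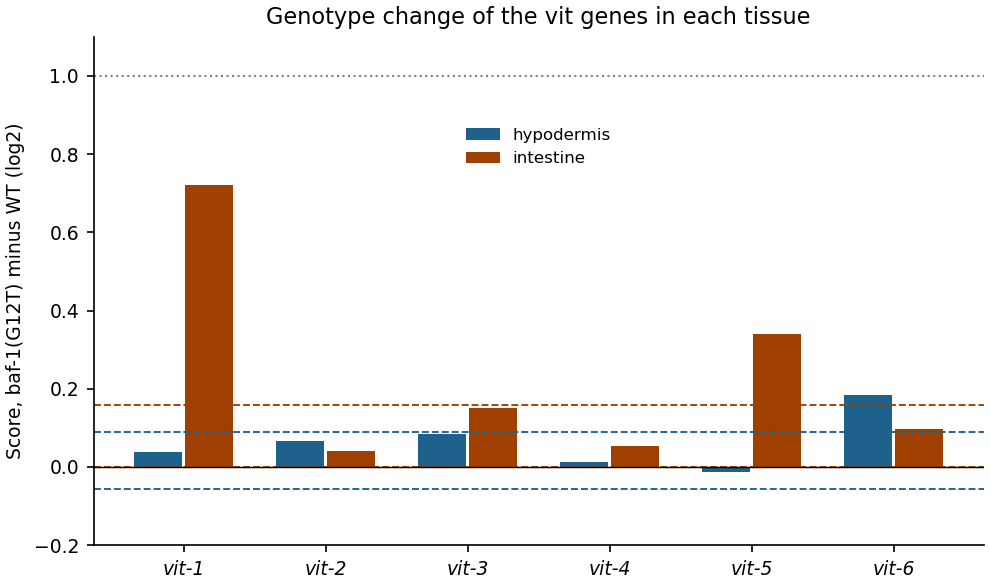
Score in baf-1(G12T) minus score in WT (log2, vertical axis) of each vit gene in hypodermis (blue bars) and intestine (brown bars), 1 value per bar. Dashed lines are the quartiles of genes with at least 16 fragments in the tissue of the same colour, and the dotted line marks a change of 1. Only vit-1 and vit-5 in intestine and vit-6 in hypodermis reach above the upper quartile of their tissue.

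The genes next to the family were read in the same way, since a fragment between 2 genes can carry signal of either. The nearest protein-coding genes that do not overlap a member were spp-14 and set-12 at vit-1, acn-1 and C42D8.1 at vit-2, T27A10.5 and rgs-7 on the outer sides of vit-3 and vit-4, C04F6.9 and unc-78 at vit-5, and K07H8.7 and K07H8.8 at vit-6. None of these 10 was called in any group. Of all named genes 7.53% to 10.5% were called per combination of tissue and genotype, so none of 10 is near the background. K07H8.8, which ends 184 bases from vit-6 on the opposite strand, scored -0.12 in WT intestine and -0.10 in baf-1(G12T) intestine, and C42D8.9, which overlaps vit-2 by 11 bases on the opposite strand, scored -0.97 and -1.04. The genes beside vit-6 and vit-2 did not have high intestinal scores, and whether signal was carried between neighbours was not tested. T27A10.8 and F59D8.3, noncoding RNAs annotated on the other strand, overlap vit-3 by 171 and vit-4 by 150 bases. DamID does not record strand, so signal over the overlap cannot be assigned to one of them.

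The factors that act on vit transcription were described from a list of 15 genes. It holds activators known from adult animals (elt-2, unc-62, ceh-60), mab-3, which represses vit genes in males, pqm-1, linked to vit expression downstream of TORC2, the heterochronic genes lin-14, lin-28 and lin-29, and genes of insulin and TORC2 signalling. Of the 15, 3 were called in WT intestine, 5 in baf-1(G12T) intestine, 4 in WT hypodermis and 5 in baf-1(G12T) hypodermis, where 7.94%, 10.5%, 9.81% and 7.53% of all named genes were called in the same order. Their median score was -0.06 in WT intestine and 0.05 in baf-1(G12T) intestine, close to -0.07 and -0.02 for all named genes. By the rule of 1, 1 of 15 was higher in intestine in WT and none in baf-1(G12T), and none passed between genotypes in either tissue.

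pqm-1, a zinc finger factor that also acts in stress and insulin responses, was that gene. Its scores were -0.67 and -0.26 in WT and baf-1(G12T) hypodermis and 0.43 (FDR 0.0063) and 0.56 (FDR 0.0013) in intestine. It was the listed factor whose calls followed the same tissues as those of vit-2 and vit-6. elt-2, the GATA factor of the intestine, was called in no group, with scores of -0.29 in WT and -0.08 in baf-1(G12T) intestine over 7 fragments. unc-62, a homeodomain factor, was called in WT and baf-1(G12T) hypodermis (0.18 and 0.54) and in baf-1(G12T) intestine (0.12), and scored -0.23 in WT intestine. ceh-60, the homeodomain partner of UNC-62, was called in none, with -0.06 in WT and -0.12 in baf-1(G12T) intestine. mab-3 and lin-29, a DM-domain factor and a zinc finger factor of the larva-to-adult switch, were called in none either, with -0.33 and -0.05 in WT intestine and -0.25 and -0.02 in baf-1(G12T) intestine.

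Genes for assembly, secretion and uptake of yolk were described from a list of 10. None was called in hypodermis, 4 were called in WT intestine (dsc-4, rme-1, rab-11.1, sec-23) and 4 in baf-1(G12T) intestine (dsc-4, rme-1, rme-8, rab-11.1). Of all named genes 9.81% and 7.53% were called in WT and baf-1(G12T) hypodermis and 7.94% and 10.5% in intestine, so none of 10 in hypodermis is near the background. None passed the rule of 1 in any comparison, and the median score was -0.02 in WT and 0.08 in baf-1(G12T) intestine. dsc-4 encodes the microsomal triglyceride transfer protein, which loads lipid onto vitellogenin, and scored 0.24 (FDR 0.0021) and 0.31 (FDR 0.00039) in WT and baf-1(G12T) intestine against -0.13 and -0.10 in hypodermis. rme-2, the yolk receptor of the oocyte, which lies in neither tissue, was called in no group, with scores of -0.17 in both intestine tables and -0.11 and -0.01 in hypodermis.

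**Figure D5:**
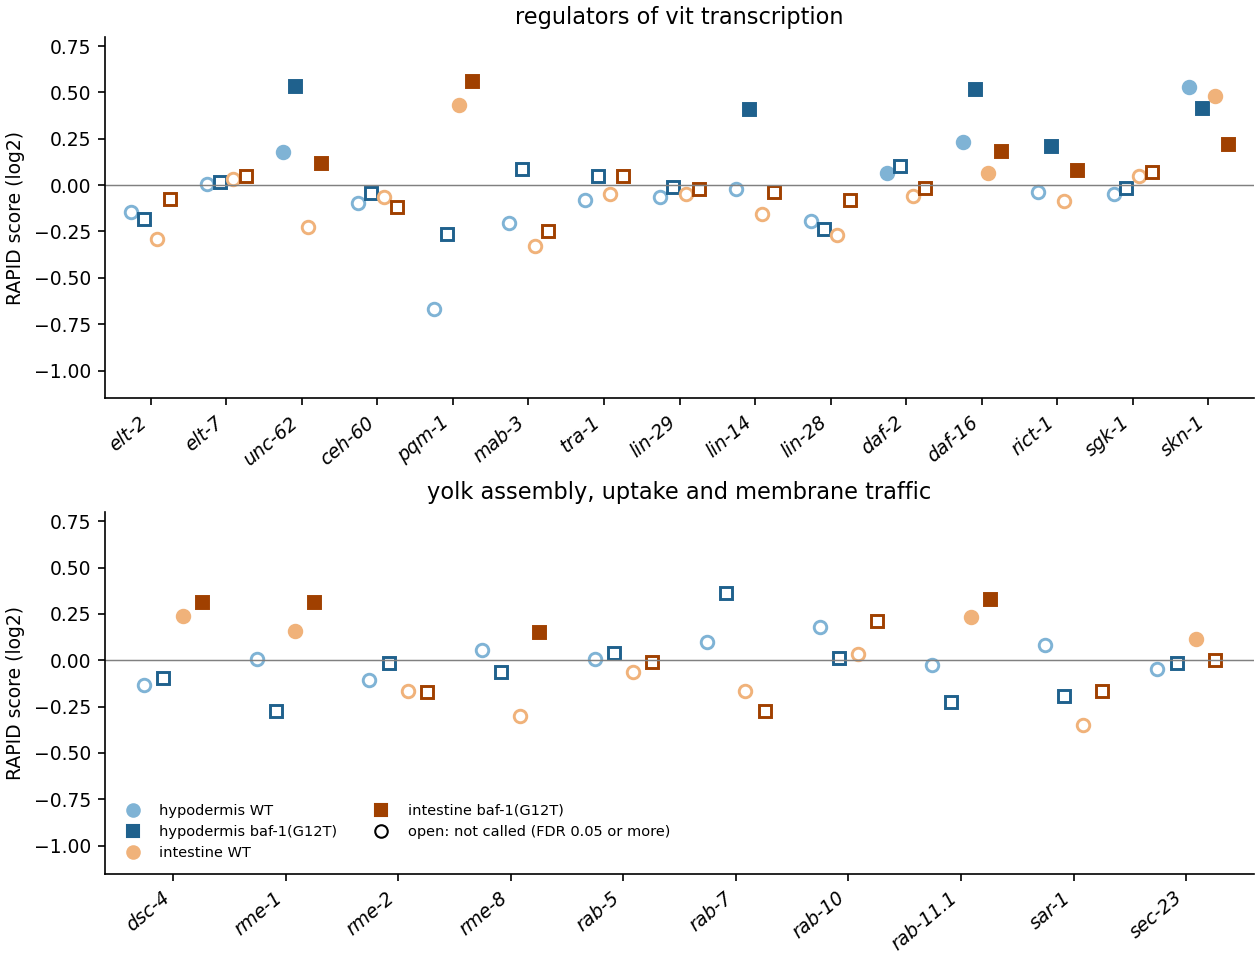
RAPID score (log2, vertical axis) of the 15 genes listed as regulators of vit transcription (top) and the 10 listed for yolk assembly, uptake and membrane traffic (bottom) in the 4 combinations of tissue and genotype, filled where the FDR was under 0.05. pqm-1 and dsc-4 are filled in both intestine tables and open in both hypodermis tables.

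The named genes nearest to the median profile of the family, by Euclidean distance over the 4 scores among 1307 other genes with at least 27 fragments, were spc-1 (0.097), bath-33 (0.14), xnp-1 (0.15), pyr-1 (0.17) and ubql-1 (0.20). All 5 were called in baf-1(G12T) intestine, with scores of 0.43 to 0.60, and none in hypodermis. The genes were picked by these same scores, so their levels and calls follow from the choice and are no separate observation. In WT intestine 4 of them were called, at 0.04 to 0.14, and xnp-1 was not (0.01, FDR 0.063). The median profile of the family lies far from that of vit-2 and vit-6, so these genes resemble the middle of the family and not its leading members.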

How the data were processed

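RAPID libraries of hypodermis and intestine of WT and baf-1(G12T) L4 larvae were analysed from 4 deposited tables. Reads with the DamID adapter at GATC sites of ce11 were kept by the authors, who normalized them against GFP::Dam in damidseq_pipeline and obtained the log2 score and the FDR (used as a q-value) per gene with polii.gene.call and the WBCel235 annotation. The deposited FDR was used as given, with 0.05 as in the study's methods. The versions of damidseq_pipeline and polii.gene.call, the combination of replicates and the treatment of reads with several matches are not given in the sources used here. Each table has 19985 rows, of which 11 name no gene and were left out.

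Differences are subtractions of scores, without a test, as no table holds replicate values. The members, the gene lists and the rule for named genes were chosen with earlier results of these data known. The rule names the 6 vit genes, set genes of the lists and markers, the nearest protein-coding neighbours and the 5 nearest profiles. Others were chosen after their values were seen, where a list count was small (rme-1, rme-8, rab-11.1, sec-23, unc-15, unc-104) or a gene overlaps a member (C42D8.9, T27A10.8, F59D8.3). Sequences, unique windows and coding identities were computed from the RefSeq genome and annotation of WBcel235, with Python 3.11.15, numpy 2.4.6, pandas 2.3.3, Biopython 1.88 and matplotlib 3.10.9. The difference and quantile steps were tested on simulated data. As alternatives, calls at FDR 0.01 and 0.1 and with a score above 0.2 were tried, with means, leaving out members, centring, quantile normalization, rules of 0.58 and 1.5, fragment classes, windows of 36 and 75 bases and the gene strand alone.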

Additional observations from a re-analysis of the deposited data

Results flagged for a closer look

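The genotype change of vit-5 had opposite signs in the 2 tissues, 0.34 in intestine and -0.01 in hypodermis, a difference of 0.35 on the log2 scale. The difference was not tested, as there is 1 value per tissue and genotype, and the hypodermal change is close to 0. vit-5 shares 41.4% of its 50-base windows with vit-3 and 46.1% with vit-4, and the part of shared sequence in this difference was not tested.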

How the results depend on the processing

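No paired analysis was possible because each table holds 1 combined value per gene, and for the same reason no replicate could be left out. Of 167 recomputed values 147 kept their place within the limits set, and none of those past the rule of 1 changed direction. The limits were 0.1 on the log2 scale and 1.5 times for counts, ranks and shares. A difference past the rule of 1 counted as kept if it stayed past it, whatever its shift. After quantile normalization the tissue differences in baf-1(G12T) were 2.29 for vit-6 and 1.93 for vit-2, in place of 1.54 and 1.31. An FDR under 0.01, or a score above 0.2 with an FDR under 0.05, left 3 called vit genes in WT intestine in place of 5, which removes vit-3 and vit-4. In baf-1(G12T) intestine the same 2 cuts left 5 and 4 called vit genes in place of 6. A rule of 1.5 left 1 vit gene, vit-6, higher in intestine in each genotype, and a rule of 0.58 added 1 change between genotypes, vit-1 in intestine. The rule of 0.58 also gave 3 vit genes higher in intestine in baf-1(G12T) in place of 2, with vit-5 at 0.60. The shares of all named genes passing these other cuts were not computed, so these counts have no background beside them. The mean of the 6 scores was 0.45 in WT and 0.68 in baf-1(G12T) intestine. Without vit-3 and vit-4 the median score was 0.70 and 0.89, and the median difference between tissues 0.80 and 0.96. Quantile normalization gave a median tissue difference of 0.72 in baf-1(G12T) and a median genotype change of 0.45 in intestine, in place of 0.12, with 0.74 for vit-6 and 0.57 for vit-2, so the small size of their genotype change depends on the scaling. On the strand of the gene alone both promoter elements were in 3 of 6 vit promoters and in 0.160% of 19971 promoters of all genes.

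The main limit is the single value per group. Among genes with 27 to 31 fragments the lowest score called ranged from 0.0203 to 0.195 over the 4 tables, so a call near it, as for vit-3 and vit-4, rests on a difference of a few hundredths. Shared sequence limits what can be said of vit-3, vit-4 and vit-5 one by one.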
